A study of Rattus norvegicus with 6 samples.

Results

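The mature miRNAs of the miR-125 and miR-99/100 clusters were examined in rat cortical neurons with and without a short exposure to BDNF. Members were chosen by name, which gave 10 of the 649 miRNAs in the count files: rno-miR-125a-5p, rno-miR-125a-3p, rno-miR-125b-5p, rno-miR-125b-1-3p, rno-miR-125b-2-3p, rno-miR-99a-5p, rno-miR-99a-3p, rno-miR-99b-5p, rno-miR-99b-3p and rno-miR-100-5p. The prefix for rat is left out from here on. All 10 were among the 336 miRNAs that passed the filter on low counts, a mean RPM of 10 or more in at least 1 condition, where RPM is the read count scaled to a common library total.

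Small RNA was sequenced from primary cortical neurons of embryonic day 18 Sprague-Dawley rats after 7 days in vitro per the labels, although the study's own text gives a slightly earlier day. Neurons received 100 ng/ml BDNF, a neurotrophin that drives dendrite growth, or the vehicle (0.1% BSA) for 20 min, with 3 libraries per condition that the study's methods call biological replicates. Per the study's methods, cortical cultures were kept in Neurobasal medium and treated with an antimitotic agent, which limits dividing cells. The libraries asked whether brief BDNF stimulation alters mature miRNA levels.

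miR-125 is the mammalian counterpart of lin-4, the founding miRNA of worm developmental timing, and in mammals its genes lie in clusters in which a miR-99/100 gene comes first, a let-7 gene second and a miR-125 gene last. A precursor hairpin yields a 5p and a 3p arm. The arm that is retained in Argonaute guides it to target mRNAs, mainly through the seed (bases 2 to 8), and the other arm is largely degraded. In neurons, miR-125a is known for repressing PSD-95 together with FMRP, and miR-125b for shaping dendritic spines and repressing the NMDA receptor subunit NR2A. The miR-99/100 family is known for targeting mTOR and the IGF1 receptor.

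The mature sequences are shown first because the seeds set which members can be read as a family. RefSeq (build GRCr8) matched 9 of the 10 members by name, the exception being miR-99a-5p. In the 5p arms below, 5′ to 3′ with the seed in capitals, miR-125a-5p and miR-125b-5p share the seed CCCUGAG, and miR-99b-5p and miR-100-5p share ACCCGUA.
miR-125a-5p: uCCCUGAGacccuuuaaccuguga
miR-125b-5p: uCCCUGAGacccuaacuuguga
miR-99b-5p: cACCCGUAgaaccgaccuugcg
miR-100-5p: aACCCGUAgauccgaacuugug

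The 3p arms, printed in the same way, are shown because they tell apart the genes that make the same 5p arm. miR-99a-3p and miR-99b-3p share a seed, whereas the 3 miR-125 3p arms each have their own.
miR-125a-3p: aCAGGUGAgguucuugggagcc
miR-125b-1-3p: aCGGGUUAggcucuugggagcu
miR-125b-2-3p: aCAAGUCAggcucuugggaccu
miR-99a-3p: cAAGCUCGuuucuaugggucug
miR-99b-3p: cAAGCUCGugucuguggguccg

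With positions counted from 1 at the 5′ end, miR-125b-1-3p and miR-125b-2-3p were identical at 18 of 22 bases and differed by G3A, G4A, U7C and G20C. miR-100-5p differed from miR-99b-5p by A1C, U11A, A16C and U21C. The best ungapped match of miR-100-5p within the Mir99a hairpin differed from it at 1 of 22 bases (A16U). The authors' mapping allowed 1 mismatch, and whether reads were exchanged between miR-99a-5p and miR-100-5p was not tested.

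The RefSeq table places the genes in 3 clusters, all on the plus strand of GRCr8. Mir99b, Mirlet7e and Mir125a lie within 696 bp at chr1:67350064-67350759, inside the span of the protein-coding gene Spaca6. Mir100, Mirlet7a-2 and Mir125b1 spread over 51828 bp at chr8:50798295-50850122, inside the span of Mir100hgl. Mir99a, Mirlet7c1 and Mir125b2 spread over 45257 bp at chr11:29687392-29732648, inside the long non-coding RNA gene LOC103693508. The table does not give exons or introns. miR-125b-5p is the product of both Mir125b1 and Mir125b2, so its reads cannot be assigned to one of the clusters, whereas its 3p arms can.

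The control libraries held 10438941, 12533029 and 10374120 miRNA reads and the BDNF libraries 11682743, 11278001 and 11902839. Levels are given below as normalized RPM, which is RPM after scaling by the TMM factors (0.928 to 1.085), which correct for a few abundant miRNAs taking a larger share of a library. Libraries with the same replicate number deviated together from their group means, and pairs are therefore given beside group values. Of the marker lists, the 5 neuronal miRNAs summed to 84503 to 104284 RPM over the 6 libraries, the 4 listed of 5 microglia and blood miRNAs to 4.11 to 9.22 RPM, the 3 oligodendrocyte miRNAs to 31.3 to 37.6 RPM, the 6 vessel and mesenchyme miRNAs to 147 to 221 RPM, and the 3 astrocyte and reactive glia miRNAs to 5596 to 7502 RPM, of which miR-21-5p alone gave 5571 to 7480 RPM. In these bulk libraries, fewer cells of a type and less RNA per cell cannot be told apart.

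The 5p arms were among the abundant miRNAs of these neurons. By mean RPM over the 6 libraries, miR-125b-5p ranked 4, miR-99a-5p 8, miR-100-5p 20, miR-99b-5p 21 and miR-125a-5p 25 among the 649 listed. The 10 members made up 9.62% ± 1.12 (SD, n = 3) of the reads in controls and 9.87% ± 1.67 (SD, n = 3) with BDNF. Adapter ligation differs between sequences, so the levels of different miRNAs compare reads and not molecules.

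miR-125b-5p stood above miR-99a-5p in all 6 libraries, by 1.18 to 1.77 times. miR-99a-5p stood above miR-99b-5p, by 2.33 to 2.62 times, and miR-99b-5p above miR-125a-5p, by 1.48 to 2.45 times. miR-99b-5p and miR-100-5p had no fixed order, since miR-100-5p was the higher of the pair in both replicate 1 libraries and miR-99b-5p in the other 4. Within the miR-125 seed family, miR-125b-5p exceeded miR-125a-5p by 6.13 to 7.54 times.

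**Figure D1:**
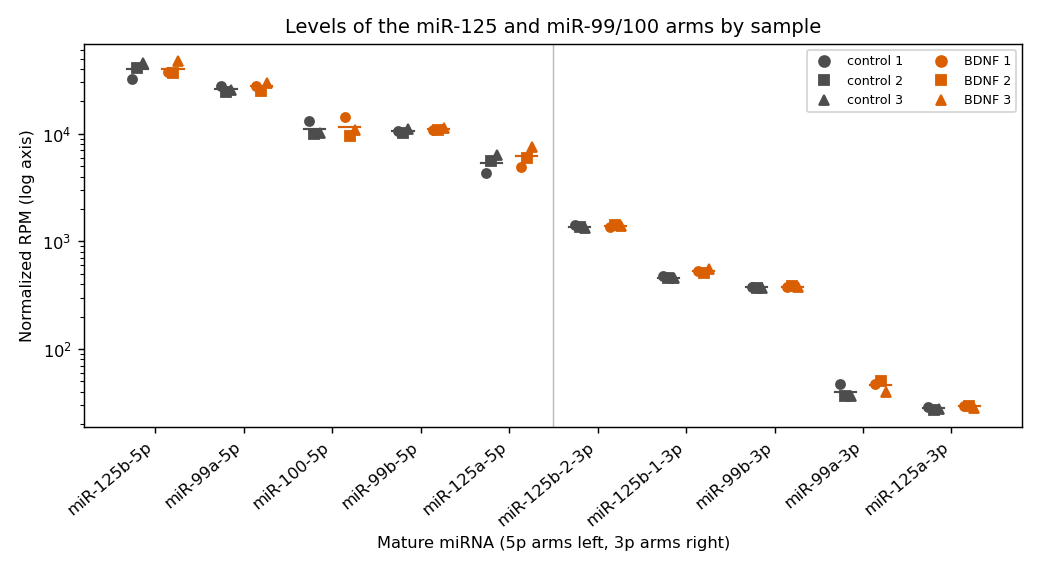
Normalized RPM (log axis) of the 10 member miRNAs in each of the 6 libraries, with controls and BDNF-treated neurons marked apart. The 5p arms lie between about 4332 and 47110 normalized RPM, and the 3p arms from 27.4 to 1427.

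The 3p arms covered a wide range of levels. miR-125b-2-3p ranked 61 of 649, miR-125b-1-3p 109, miR-99b-3p 120, miR-99a-3p 238 and miR-125a-3p 271. The least abundant, miR-125a-3p, was still counted 301 to 369 times per library.

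None of the 10 members differed between BDNF and control at an adjusted p below 0.05 (edgeR quasi-likelihood test with Benjamini-Hochberg adjustment), and neither did any of the 336 miRNAs tested (0.0%). At an unadjusted p below 0.05 the count was 0 of 10 members, against 10 of 336 (2.98%), of which 5 (1.49%) were higher with BDNF. That 0 of 10 also held in limma-voom, with library size alone and with no filter. It did not hold in DESeq2, with RLE or upper-quartile factors or with a filter at 100 RPM, where miR-125b-1-3p passed the unadjusted threshold. DESeq2 and limma-voom also called no miRNA after adjustment. The fitted log2 fold changes of the members, all above 0, ran from 0.010 to 0.20 with a median of 0.06, and over all miRNAs tested the median was -0.002 with 165 of 336 above 0. The direction of miR-99b-3p depended on the scaling, since with library size alone its log2 fold change was -0.012.

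Among the 5p arms, miR-125b-5p, the most abundant member, measured 32665, 41169 and 45575 normalized RPM in control replicates 1 to 3 and 37387, 36488 and 47110 with BDNF. The conditions overlapped, with means of 39803 ± 6562 and 40328 ± 5890 (SD, n = 3 each). The log2 fold change was 0.019 (SE 0.16), with a 95% interval from -0.37 to 0.41. Blocking on the replicate number gave 0.023 (SE 0.08), with a 95% interval from -0.17 to 0.21.

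miR-125a-5p, which carries the same seed, measured 4332, 5536 and 6365 normalized RPM in controls and 4959, 5948 and 7593 with BDNF. BDNF libraries overlapped the controls but were higher in each pair, by 1.14, 1.07 and 1.19 times. The log2 fold change was 0.19 (SE 0.20), with a 95% interval from -0.29 to 0.67. With the replicate number as a block, the estimate was 0.18 (SE 0.07), with an unadjusted p of 0.0226 and an adjusted p of 0.173 in edgeR. Leaving out 1 library moved the unblocked log2 fold change from 0.011, without BDNF replicate 3, to 0.32, without BDNF replicate 1 or control replicate 3.

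miR-99a-5p, the leading member of its family, measured 27571, 24586 and 25679 normalized RPM in controls and 28044, 25100 and 29524 with BDNF. The groups overlapped, and the log2 fold change was 0.09 (SE 0.11), with a 95% interval from -0.17 to 0.34. miR-99b-5p, encoded beside Mir125a, had the smallest spread of the 5p arms relative to its mean, with 10617 ± 392 normalized RPM in controls and 10991 ± 264 with BDNF (SD, n = 3 each). Its log2 fold change was 0.05 (SE 0.09), with a 95% interval from -0.16 to 0.26.

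miR-100-5p, from the chr8 cluster, measured 13127, 9865 and 10113 normalized RPM in controls and 14202, 9447 and 10765 with BDNF. Both replicate 1 libraries were high, and the difference between pairs exceeded that between conditions. The log2 fold change was 0.06 (SE 0.19), with a 95% interval from -0.39 to 0.50. Blocking on the replicate number gave 0.05 (SE 0.07), with a 95% interval from -0.11 to 0.20.

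**Figure D2:**
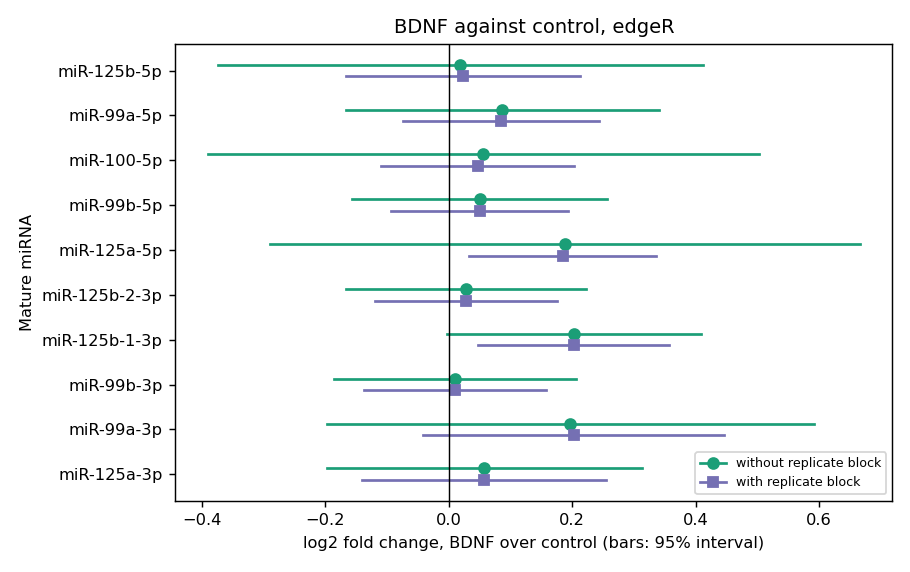
Log2 fold change of BDNF against control for each member, with its 95% interval, from the edgeR fit without and with the replicate block. Without the block every interval includes 0, and with it miR-125b-1-3p and miR-125a-5p lie above 0.

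Of the 3p arms, miR-125b-1-3p, which comes from Mir125b1 alone, showed the clearest separation. It measured 473.8, 459.2 and 453.3 normalized RPM in controls and 533.4, 504.8 and 557.9 with BDNF. The lowest BDNF library lay above the highest control, and the pairs differed by 1.13, 1.10 and 1.23 times. It was the 1 member of 10 whose groups did not overlap, where 24 of the 336 miRNAs tested did not overlap in either direction (7.14%) and 12 were higher with BDNF (3.57%). On RPM from column sums the groups met, at 490.0 in control replicate 3 and 489.8 in BDNF replicate 2.

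The log2 fold change of miR-125b-1-3p was 0.20 (SE 0.09), with a 95% interval from -0.002 to 0.41, an unadjusted p of 0.052 and an adjusted p of 0.999 in edgeR. The unadjusted p was 0.016 in DESeq2, 0.044 with RLE factors, 0.037 with upper-quartile factors and 0.041 with a filter at 100 RPM, and no adjusted p passed 0.05. In limma-voom, with library size alone and with no filter the unadjusted p did not fall below 0.05. With the replicate block the log2 fold change was 0.20 (SE 0.07), with an unadjusted p of 0.0167 and an adjusted p of 0.168. Under that fit 2 of 10 members, miR-125b-1-3p and miR-125a-5p, had an unadjusted p below 0.05, against 69 of 336 miRNAs (20.5%). Both were higher with BDNF, as were 26 of the 336 (7.74%).

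The other 3p arms overlapped between conditions. miR-125b-2-3p, from Mir125b2, measured 1408, 1352 and 1332 normalized RPM in controls and 1359, 1427 and 1386 with BDNF, a log2 fold change of 0.028 (SE 0.08). miR-99a-3p gave 40.2 ± 6.6 and 46.1 ± 5.4 (SD, n = 3 each), and its log2 fold change of 0.20 (SE 0.17) was as large as that of miR-125b-1-3p with a wider interval, from -0.20 to 0.59. miR-99b-3p (log2 fold change 0.010, SE 0.08) and miR-125a-3p (0.06, SE 0.11) were the closest to 0 besides miR-125b-2-3p.

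On the normalized scale 5 of 10 members were higher with BDNF in every pair, where 54 of 336 miRNAs were (16.1%). None was lower in every pair, and 134 of the 336 (39.9%) had the same direction in every pair. On RPM from column sums this was so for 2 of 10, miR-125a-5p and miR-125b-1-3p, where 31 of 336 were (9.23%). The count thus depended on the scaling, and arms of the same hairpin or cluster are not independent of each other.

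The 3p arms of miR-125b allowed the 3p reads of Mir125b1 and Mir125b2 to be set side by side within a library, which needs no scaling between libraries. Whether the share of 3p reads follows the output of these genes was not tested. miR-125b-1-3p made up 25.2% (95% Wilson interval 24.6 to 25.8), 25.4% (24.8 to 25.9) and 25.4% (24.8 to 26.0) of the miR-125b 3p reads in control replicates 1 to 3. With BDNF the share was 28.2% (27.6 to 28.8), 26.1% (25.5 to 26.7) and 28.7% (28.1 to 29.3). All 3 BDNF libraries lay above all 3 controls, although the interval of BDNF replicate 2 overlapped those of the controls. These intervals cover counting error only and leave out the spread between libraries. They can be too narrow even for counting error, since reads amplified by PCR are not independent molecules.

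The mean share was 25.3% ± 0.11 in controls and 27.7% ± 1.36 with BDNF (SD, n = 3 each), a difference of 2.36 percentage points. The exact two-sided permutation test gave p = 0.1, the smallest that 3 against 3 allows, and exact sign flips within pairs gave p = 0.25, again the smallest possible. The pairs differed by 3.0, 0.78 and 3.31 points, and leaving out any 1 library gave 1.85 to 3.14 points. Fitted in limma beside the arm ratios of all precursors, the log2 ratio of miR-125b-1-3p to miR-125b-2-3p changed by 0.17 (SE 0.11), with an adjusted p of 0.841 and, with the replicate block, 0.382. Of 7 pairs of locus-numbered 3p arms with both members tested, this was the 1 pair (14.3%) whose groups did not overlap.

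**Figure D3:**
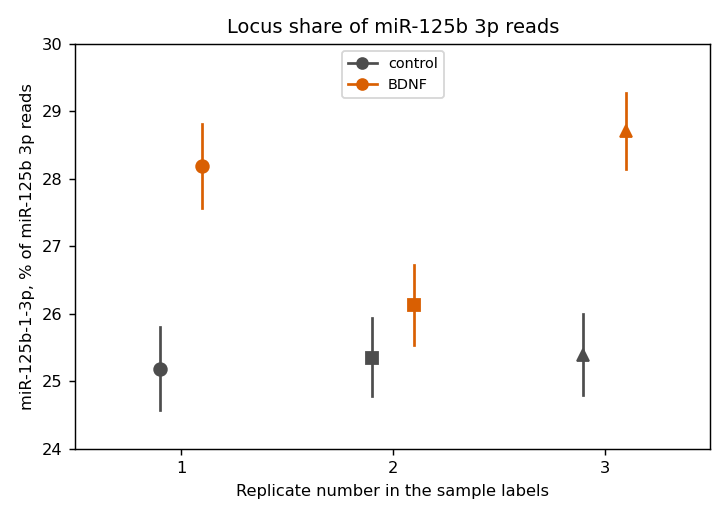
Share of miR-125b 3p reads that came from miR-125b-1-3p (percent) in each library, with 95% Wilson intervals. The controls lie from 25.2% to 25.4% and the BDNF libraries from 26.1% to 28.7%.

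5p reads outnumbered 3p reads in all 6 ratios from the clusters, miR-100 included, although its 3p arm is not a member. The ratio of 5p to 3p reads was 27.7 to 30.1 for miR-99b, 149 to 266 for miR-125a and 497 to 737 for miR-99a. The miR-100 ratio, 766 to 1425, was the third highest of the 103 precursors with both arms tested, and that of miR-99a came next. Among those 103 precursors the 5p arm prevailed in 64, with a median log2 ratio of 1.64. The miR-125b ratios, 68.9 to 101 over miR-125b-1-3p and 23.2 to 34.2 over miR-125b-2-3p, share their 5p count and are not independent. That count pools the reads of Mir125b1 and Mir125b2, so neither value is the ratio of a single precursor.

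None of the 6 ratios differed between BDNF and control in limma at an adjusted or an unadjusted p below 0.05, against 0 of 103 (0.0%) and 4 of 103 (3.88%) precursors. With the replicate block the count was again 0 of 6 at an unadjusted p below 0.05, against 16 of 103 (15.5%). The miR-125b-1 ratio changed by -0.18 (SE 0.16) on the log2 scale, from 68.9, 89.7 and 101 in controls to 70.1, 72.3 and 84.4 with BDNF. The miR-100 ratio changed by 0.25 (SE 0.23) and the miR-125a ratio by 0.13 (SE 0.24). In each of these the conditions overlapped and the 95% interval of the change included 0.

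**Figure D4:**
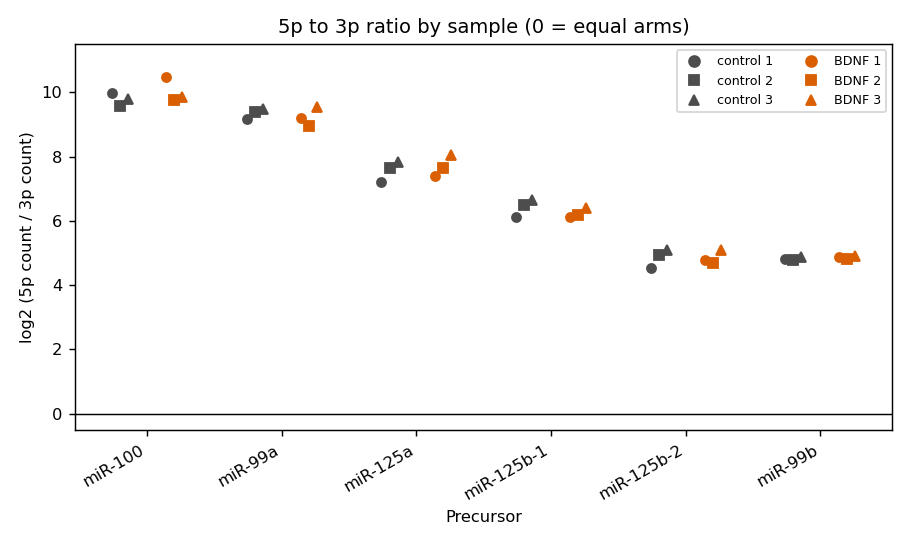
Log2 ratio of 5p to 3p reads for the 6 pairs of arms in each library, controls and BDNF marked apart, with a line at equal arms. The miR-125b ratios share a 5p count that pools Mir125b1 and Mir125b2. All points lie above 0, and the conditions overlap in every ratio.

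Levels also differed between the replicate pairs. In an edgeR test of the replicate number, chosen after the data were seen, 3 of the 10 members passed an adjusted p of 0.05, against 162 of 336 miRNAs (48.2%). All 3 were 5p arms. miR-125a-5p (adjusted p = 0.0024) was higher by 0.59 on the log2 scale in replicate 3 than in replicate 1, miR-125b-5p (adjusted p = 0.0279) by 0.40, and miR-100-5p (adjusted p = 0.0042) was lower, at -0.39.

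Of the arms encoded in the chr8 cluster, miR-100-5p and miR-125b-5p, the latter also encoded on chr11, differed in opposite directions, so that their log2 ratio was -1.32 and -1.40 in the replicate 1 libraries and between -2.17 and -1.95 in the other 4. In the same libraries, the neuronal marker miR-129-5p stood at 7776 and 8693 RPM in replicate 3 against 2616 to 3338 RPM in the others. The other neuronal markers did not all follow it. From replicate 1 to replicate 3, miR-138-5p differed by 0.43 on the log2 scale, miR-124-3p by -0.040, miR-128-3p by -0.048 and miR-137-3p by -0.036. Among the astrocyte and reactive glia markers, miR-21-5p stood at 5571 and 5602 RPM in replicate 3 against 6615 to 7480 RPM in the others. miR-146a-5p was lower in replicate 3 than in replicate 1 (-0.31), but lower still in replicate 2 (-0.68). miR-31a-5p was not lower in replicate 3 than in replicate 1 (8.58 and 8.49 against 6.71 and 6.76 RPM). The part of these markers in the differences between pairs was not tested. Of the 6 ratios of 5p to 3p reads, 4 differed between pairs at an unadjusted p below 0.05 in limma (34 of 103, 33.0%), and 0 of 6 after adjustment (13 of 103, 12.6%).

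**Figure D5:**
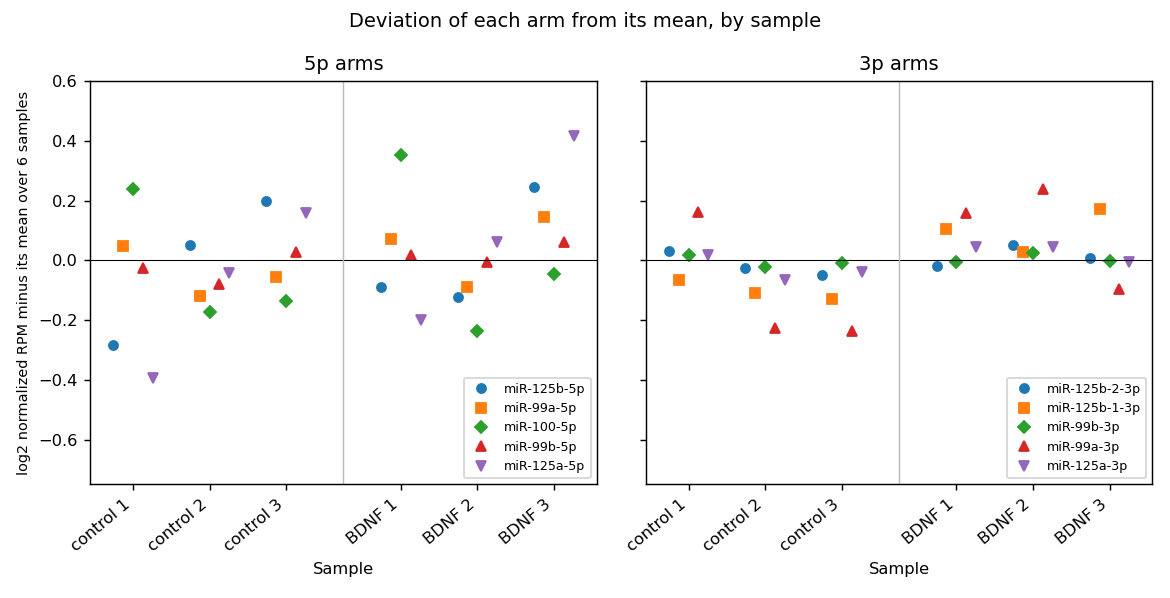
Log2 normalized RPM of each member minus its mean over the 6 libraries, for the 5p arms (left) and the 3p arms (right), by sample. Both replicate 1 libraries lie below the mean for miR-125a-5p and miR-125b-5p and above it for miR-100-5p.

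Summed by family over the members alone, the miR-125 5p arms held 4.58% ± 0.98 of reads in controls and 4.66% ± 1.11 with BDNF, and the miR-99/100 5p arms 4.81% ± 0.47 and 4.97% ± 0.60 (SD, n = 3 each). miR-351-5p, which shares the miR-125 seed but is not a member, was left out. miR-99a-5p was included by name, since its seed could not be read from RefSeq. On the log2 scale of summed normalized RPM the differences were 0.04 (exact permutation p = 0.9) and 0.07 (exact permutation p = 0.4). The log2 ratio of miR-99b-5p to miR-125a-5p, both from the chr1 cluster, also overlapped between conditions, with a difference of -0.13 (exact permutation p = 0.6). That of miR-100-5p to miR-125b-5p overlapped as well, with a difference of 0.024 (exact permutation p = 0.9). The latter is not a ratio within a single cluster, since miR-125b-5p is also encoded by Mir125b2 on chr11. Within pairs, the log2 ratio of miR-99b-5p to miR-125a-5p was lower with BDNF in all 3, by -0.15, -0.031 and -0.22, and the miR-99/100 sum was higher in all 3 on the normalized scale, by 0.052, 0.020 and 0.14. The log2 ratio of the related miR-125b-5p and miR-125a-5p was 2.88 ± 0.04 in controls and 2.72 ± 0.17 with BDNF (SD, n = 3 each; exact permutation p = 0.3), with pair differences of -0.0003, -0.28 and -0.21. Where all 3 pairs had the same direction, exact sign flips gave p = 0.25, the smallest that 3 pairs allow.

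The let-7 genes lie between the other 2 genes of each cluster, and let-7 maturation is known to be blocked by LIN28. Of 8 listed arms of let-7a, let-7c and let-7e, 7 were tested and none differed between BDNF and control in edgeR after adjustment or at an unadjusted p below 0.05. The untested arm was let-7a-2-3p, the 3p arm of the chr8 cluster, with 25 to 34 reads per library, whereas let-7a-1-3p and let-7c-2-3p come from Mirlet7a1 on chr17 and Mirlet7c2 on chr7, outside the clusters. let-7c-5p, a product of Mirlet7c1 and of Mirlet7c2 outside the clusters, had 59587 ± 11552 normalized RPM in controls and 49688 ± 2899 with BDNF (SD, n = 3 each), a log2 fold change of -0.26 (SE 0.16). let-7a-5p (0.014), also a product of Mirlet7a1 outside the clusters, and let-7e-5p (0.031) had log2 fold changes close to 0. The let-7a-5p sequence differs at 1 of 22 bases from let-7c-5p and likewise from let-7e-5p. The mapping allowed 1 mismatch, and whether reads were exchanged between these arms was not tested. let-7c-1-3p, the 3p arm of the chr11 cluster, had 24.8, 25.4 and 30.3 normalized RPM in controls and 26.1, 34.7 and 40.2 with BDNF, a log2 fold change of 0.33 (SE 0.19) with the BDNF library higher in each pair. The log2 fold change was 0.38 for let-7a-1-3p (SE 0.26) and for let-7c-2-3p (SE 0.27). With the replicate block 4 of the 7 had an unadjusted p below 0.05 in edgeR, against 69 of 336 miRNAs (20.5%). let-7c-1-3p, let-7a-1-3p and let-7c-2-3p were higher with BDNF, as were 26 of the 336 (7.74%). let-7c-5p was lower, as were 43 of the 336. None passed after adjustment (lowest adjusted p = 0.166 in edgeR). let-7a-1-3p and let-7c-2-3p have the same sequence and counts within 12 reads of each other in every library, so they are not separate measurements.

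The 3 miRNAs whose profile over the 6 libraries lay nearest to each 5p arm were listed by the root mean square difference of centred log2 levels. For miR-125b-5p they were miR-362-5p (0.031), miR-872-3p (0.052) and miR-298-5p (0.054), where the median miRNA lay at 0.234. For miR-99b-5p they were miR-325-5p (0.014), miR-329-5p (0.032) and miR-106b-3p (0.034), and the median was 0.186. For miR-99a-5p they were miR-127-3p (0.043), miR-490-3p (0.047) and miR-486 (0.052), with a median of 0.203. miR-100-5p and miR-125a-5p had no neighbour as close, with miR-92b-3p at 0.065 and miR-433-3p at 0.102. No other member was among the 3 nearest to these 5p arms.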

How the data were processed

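Per the study's methods, the authors sequenced 6 small RNA libraries in a single lane, trimmed the adapter, kept reads of 15 nt or more, and mapped them to rat miRBase 21 mature miRNAs with Miraligner (1 mismatch, up to 3 nt trimmed or added). The deposited values are raw read counts per mature miRNA. How reads matching several miRNAs were counted is not given in the sources used here.

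miRNAs with a mean of 10 RPM in either condition were tested with edgeR 4.0.16 (TMM, quasi-likelihood, Benjamini-Hochberg) in R 4.3.3, arm ratios (log2, 0.5 read added) with limma 3.58.1, and single values with exact two-sided permutation tests. DESeq2 1.42.0 was an alternative. Same-numbered libraries correlated in their deviations from group means (0.80, 0.48 and 0.89 over 336 miRNAs), so the numbers were taken as pairs. No 2 libraries of a group agreed within sampling noise. Tests were checked on simulated data. Named genes were the 10 members, the let-7 neighbours, miRNAs sharing a member 5p seed, miR-10a-5p and miR-10b-5p, and the 3 nearest profiles of each 5p arm. miR-100-3p and the cell type markers given singly were named after their values were seen. The members and lists were chosen with earlier results of these data known. Levels of different miRNAs carry ligation bias. Unblocked p-values of BDNF against control rest on the spread between 3 libraries per condition. Those with the replicate block or sign flips rest on differences within pairs, and tests of the replicate number compare the pairs.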

Additional observations from a re-analysis of the deposited data

How the results depend on the processing

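Single miRNAs were refitted under other normalizations, filters and tools, arm ratios under other pseudocounts, filters and variance settings, and all of these, the family sums, the ratios of 5p arms and the miR-125b share with a replicate block and with each library left out. The limma ratio of the miR-125b 3p arms was refitted with the block alone. Of 401 values for 36 results, 347 kept direction and side of the threshold, 41 reversed and 13 counts moved. Part of that agreement was fixed in advance. Exact tests could not reach 0.05, and the block cannot move the estimate of a sum, share or ratio. No adjusted p of a member fell below 0.168 in any setting run. The number of miRNAs with an unadjusted p below 0.05, 10 as reported, was 69 with the replicate block, 6 with library size alone, 5 with a filter at 100 RPM, and 3 to 32 with 1 library left out (32 without control replicate 1, 3 without control replicate 2, 5 without control replicate 3 and 5 without BDNF replicate 2). For arm ratios it was 4 as reported, 16 with the replicate block, 7 with both arms at 1 RPM, and 1 to 14 with 1 library left out. The replicate block changed no adjusted call. The cause of these shifts was not tested.

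With library size alone, miR-99b-3p had a log2 fold change of -0.012 and let-7a-5p of -0.018. let-7e-3p was 0.014 with RLE factors and with DESeq2, 0.026 with upper-quartile factors and 0.0063 with no filter. With 1 library left out, log2 values crossed 0 for the miR-125 sum (-0.094 to 0.15), miR-125b-5p (-0.11 to 0.13), miR-100-5p (-0.13 to 0.22), let-7a-5p (-0.080 to 0.15), let-7e-5p (-0.059 to 0.16), let-7e-3p (-0.11 to 0.13), the ratios miR-99b-5p/miR-125a-5p (-0.28 to 0.018), miR-99a-5p/miR-100-5p (-0.049 to 0.19), miR-99a-5p/miR-125b-5p (-0.049 to 0.24) and miR-100-5p/miR-125b-5p (-0.19 to 0.29), and the 5p to 3p ratios of miR-125a (-0.051 to 0.28), miR-125b-2 (-0.16 to 0.12) and miR-99a (-0.27 to 0.018).

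Besides the settings given in the report, without control replicate 1 miR-125b-1-3p (log2 fold change 0.25, unadjusted p = 0.039 in edgeR) and miR-99a-3p (0.37, unadjusted p = 0.047 in edgeR) fell under 0.05 before adjustment. At 3 libraries per condition, exact tests could not reach 0.05.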

Other observations

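miR-351-5p, a rodent miRNA that shares the seed CCCUGAG with miR-125a-5p and miR-125b-5p and lies on chromosome X outside the clusters, measured 72.6, 40.4 and 52.8 normalized RPM in control replicates 1 to 3 and 80.6, 54.8 and 61.6 with BDNF. BDNF libraries were the higher of each pair and the groups overlapped. Its log2 fold change was 0.25 (SE 0.25, adjusted p = 0.999 in edgeR) and, with the replicate block, 0.27 (SE 0.09, adjusted p = 0.168). miR-100-3p, the minor arm of the miR-100 precursor, measured 13.1, 12.9 and 11.4 normalized RPM in controls and 9.97, 10.8 and 11.7 with BDNF, a log2 fold change of -0.20 (SE 0.13).

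miR-10a-5p and miR-10b-5p, which belong to the wider miR-10/miR-99/miR-100 superfamily, were below the filter. miR-10a-5p was counted 1, 27 and 1 times in controls and 34, 40 and 3 times with BDNF, and miR-10b-5p 28, 75 and 19 times in controls and 86, 80 and 19 times with BDNF.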
